A study of Homo sapiens with 10 samples.

Results

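The genes described here encode the enzymes and regulators of cholesterol and fatty acid synthesis. They were taken by gene name from a list of 31 genes, and all 31 were found among the 64940 genes of a table of RNA-sequencing values from cells derived from the human embryonic stem cell line H9. The list does not hold every enzyme of either pathway. ACACA, FDFT1 and LSS each have a second entry that was listed at 0 in all 4 libraries, and the entry with values was used. The study asked how overexpression of DAZL, an RNA-binding protein of germ cells, changes RNA levels in human primordial germ cell-like cells (hPGCLCs), and its RNA-seq compared 2 control libraries with 2 oeDAZL libraries. The labels give the control cells the genotype wt and call them cells that differentiated spontaneously from H9, whereas the design text of the series speaks of wild-type hPGCLCs. The oeDAZL cells are labelled as hPGCLCs from the same line, with oeDAZL as both genotype and treatment. In the study's methods, overexpressing cells received BMP4 and BMP8a and a lentivirus carrying DAZL and GFP, and the matching control virus carried GFP alone. The labels name neither the BMPs nor a virus for the control cells, and they do not give the day of collection. Whether a difference goes with DAZL or with the culture thus cannot be told apart here. Both groups come from 1 cell line, and the sources used here do not say whether the 2 libraries of a group came from separate cultures. The P-values thus weigh a difference only against the spread between these libraries, which the test pools in part over all genes.

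Cells make cholesterol from acetyl-CoA through mevalonate, farnesyl diphosphate, squalene and lanosterol. The same acetyl-CoA feeds fatty acid synthesis through malonyl-CoA, and elongases and desaturases then shape the product. Most of these genes are known targets of the sterol regulatory element-binding proteins (SREBPs), transcription factors that are encoded by SREBF1 and SREBF2. SCAP escorts the SREBPs out of the endoplasmic reticulum when sterols are scarce, and the INSIG proteins hold SCAP back when sterols are plentiful. Dividing cells use both pathways to build membranes.

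DAZL was listed at 0 and 0.0333 TPM in control and 102 and 101 TPM in oeDAZL, which matched the labels. TPM (transcripts per 1000000) is a level per transcript length that adds up to 1000000 in each library, so levels of different genes can be compared. Read depth cannot be recovered from it and is unknown, which leaves the counting error of a value unknown too. Over the 16687 genes with a mean of at least 1 TPM the median log2 fold change, always given as oeDAZL minus control, was −0.08 on the log2(TPM + 1) scale, and 65.3% of the genes had a negative value. Among markers of the labelled cell type, DDX4 was listed at 0 and DND1 lay below 1 TPM in every library, whereas TFAP2C was at 44.3 to 53.9 TPM and SOX17 at 2.52 to 3.35 TPM. KIT was at 6.23 to 7.70 TPM, PRDM1 at 1.47 to 2.32, DPPA3 at 0.716 to 2.17 and NANOS3 at 0.732 to 1.66 TPM. The 6 pluripotency markers added up to 541 and 487 TPM in control and 483 and 466 TPM in oeDAZL. Of the 4 that were tested, none was lower and 1 was higher at P of at most 0.05. This was POU5F1, at 13.6 and 10.6 TPM in control and 22.4 and 20.4 TPM in oeDAZL. NANOG and PRDM14 lay below 1 TPM in every library. For 7 amnion and trophoblast markers the sum was 2637 and 2408 TPM in control and 2404 and 2454 TPM in oeDAZL. GABRP was the highest of them, at 1208 to 1408 TPM, and 3 were lower and none higher at P of at most 0.05. Of tissues known for heavy lipid synthesis, 7 endoderm and liver markers added up to 269 and 160.2 TPM in control and 163 and 204 TPM in oeDAZL, with APOA1 the highest at 112 to 171 TPM and ALB below 1 TPM in every library. Of the 6 that were tested, 1 was lower and none was higher at P of at most 0.05. The 4 fat markers added up to 15.2 and 17.8 TPM in control and 23.1 and 23.9 TPM in oeDAZL, nearly all of it PPARG, since PLIN1, ADIPOQ and FABP4 lay below 1 TPM in every library. The summed level of 8 mesoderm and mesenchyme markers was 3275 and 3288 TPM in control and 2857 and 2885 TPM in oeDAZL, and of these 4 were lower and 1 was higher at P of at most 0.05. HAND1, from 958 and 1042 TPM to 1250.0 and 1247 TPM, went against the sum. For 4 neural markers the sum was 437 and 577 TPM against 689 and 635 TPM, nearly all of it NES and TUBB3. Of these markers 1 was lower and 1 was higher, PAX6 going from 3.83 and 1.14 TPM to 0.0967 and 0.558 TPM and SOX1 below 1 TPM in every library. Of all genes, 15.2% were lower and 5.02% higher at P of at most 0.05. The part of these cell types in the differences below was not tested, and in bulk RNA fewer cells of a type and less RNA per cell cannot be told apart.

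Most of the 31 genes differed little between oeDAZL and control. By limma's test on log2(TPM + 1), 7 genes were lower in oeDAZL at an unadjusted P of at most 0.05, namely ELOVL6, SREBF1, SCAP, TM7SF2, DHCR7, FASN and FADS2, and 2 were higher, SC5D and ACLY. The other 22 did not pass. The 7 lower genes are 22.6% of the 31, against 15.2% of all 16687 genes that were lower by the same rule, and the 2 higher genes are 6.45%, against 5.02% of all genes. All 31 genes were above 10 TPM in every library, so the filter on low values removed none. Among the 11933 genes with a mean of at least 5 TPM, 16.9% were lower and 6.23% were higher, so the shares of these genes stood near those of all genes. None of the 31 passed a Benjamini-Hochberg adjusted p of 0.05 in limma, where 0.0599% of all genes did, and their smallest adjusted p was 0.116. None reached a fold change of at least 2 with P of at most 0.05 in limma, which 0.563% of all genes met as lower and 0.126% as higher. The study used these thresholds with another test, DESeq2, and reported more genes past them. The shares given here are thus not those of the study. The median log2 fold change of the 31 genes was −0.06, beside −0.08 for all genes tested, and single values ran from −0.42 for ELOVL6 to 0.30 for SC5D. Both oeDAZL libraries lay below both control libraries for 15 genes (48.4%, against 38.4% of all genes) and above them for 5 genes (16.1%, against 16.0%), and the groups overlapped for 11.

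**Figure D1:**
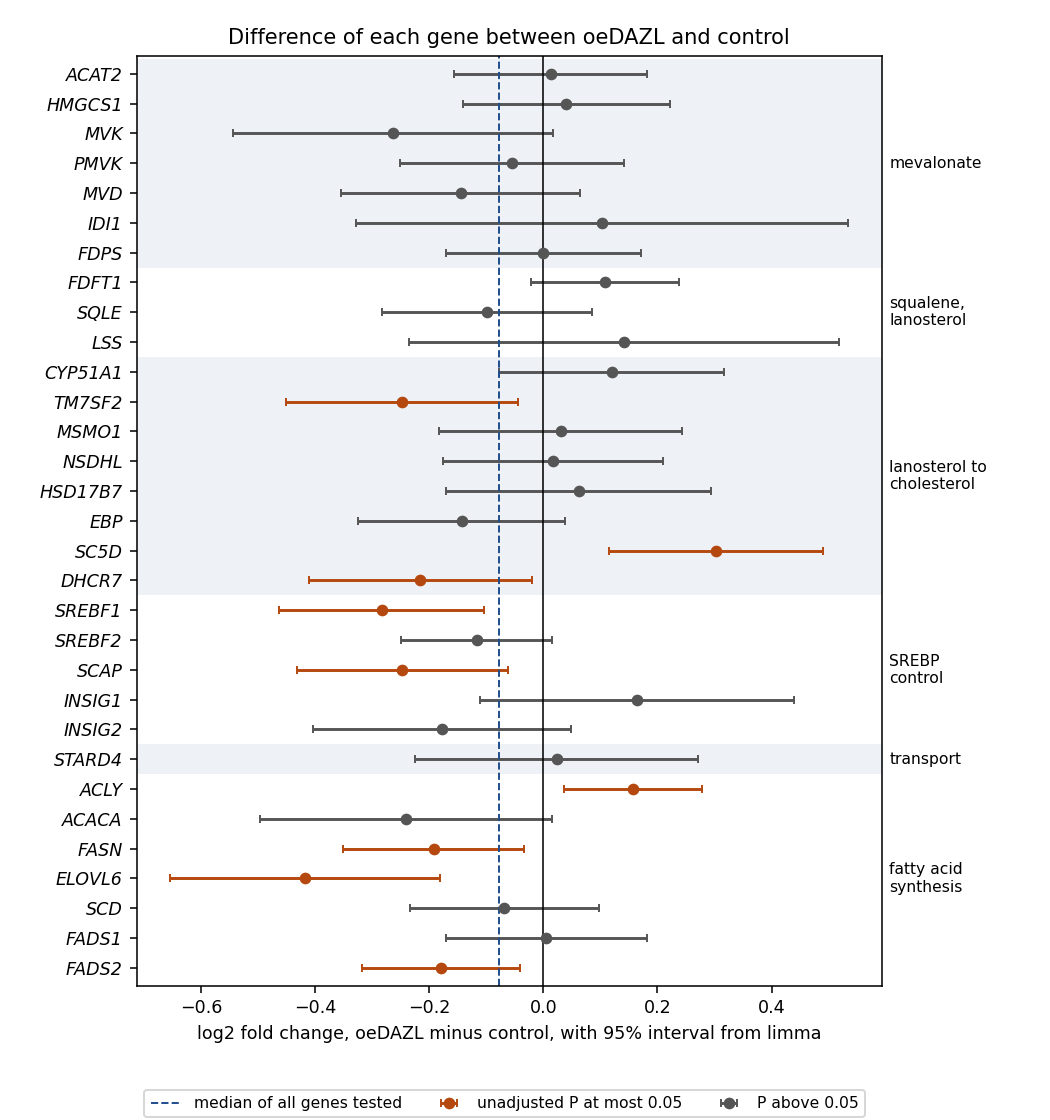
Log2 fold change of each gene on the log2(TPM + 1) scale (horizontal axis, oeDAZL minus control), with bars for the 95% interval from limma, in the order of the pathway from ACAT2 to FADS2. Red points mark the 9 genes with an unadjusted P of at most 0.05, and the dashed line is the median of all genes tested, −0.08. Most intervals cross 0, and the point farthest to the left is ELOVL6.

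The calls depended on how the libraries were scaled. With median-of-ratios scaling, which shifts all genes so that the typical gene stays level, 1 gene was lower (ELOVL6) and 3 were higher (SC5D, ACLY and FDFT1), and the median of the 31 genes was 0.04, beside 0.01 for all genes. Over all genes, 8.19% were then lower and 11.2% higher at P of at most 0.05. With quantile normalization 6 were lower and 2 were higher, with DHCR7 no longer passing. Of all genes, 9.07% were lower and 8.40% higher under that normalization. The calls also depended on limma's trend of variance with level. Without it, 2 of the 31 genes were lower (ELOVL6 and SREBF1) and 1 was higher (SC5D). The other 6 calls, for FASN, FADS2, SCAP, TM7SF2, DHCR7 and ACLY, were lost. Over all genes, 13.9% were lower and 3.39% higher without the trend.

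**Figure D2:**
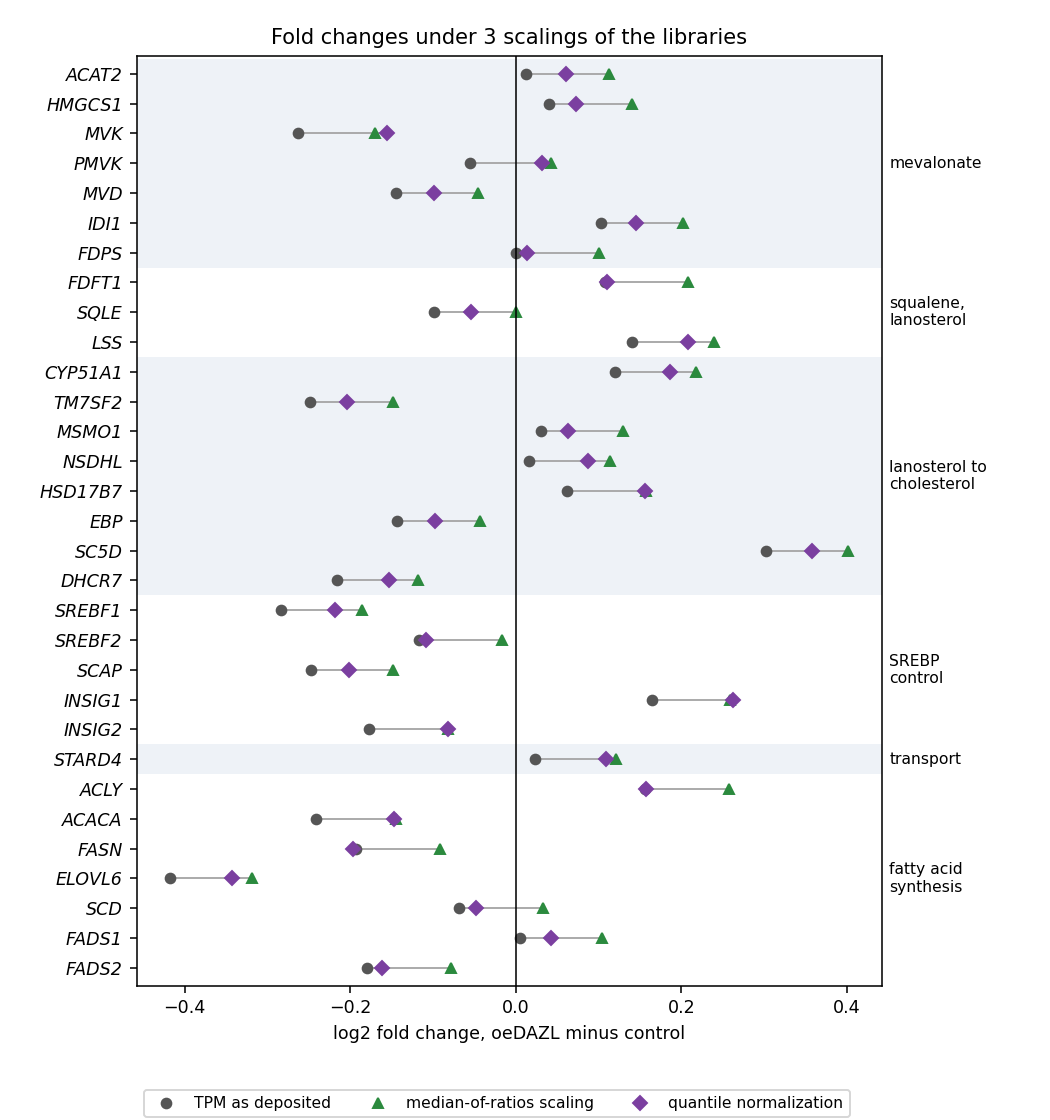
Log2 fold change of each gene (horizontal axis, oeDAZL minus control) with TPM as deposited (grey circles), with median-of-ratios scaling (green triangles) and with quantile normalization (purple diamonds). The median-of-ratios values lie to the right of the deposited ones for every gene, and PMVK, SQLE and SCD move from a negative to a positive value.

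The genes span a wide range of levels. ACLY had the highest mean over the 4 libraries, at 241 to 272 TPM, and was followed by FDFT1, FASN, FADS2, FDPS, SCD and SREBF2. MVK, INSIG1 and INSIG2 were the lowest, with values between 10.3 and 16.3 TPM. The TPM of the 31 genes added up to 2220.0 and 2265 in the control libraries and to 2217 and 2154 in the oeDAZL libraries, which is 0.216% to 0.227% of each library. The 18 enzymes from acetyl-CoA to cholesterol added up to 1041 and 1100 TPM in control and 1103 and 1051 TPM in oeDAZL, and the groups overlapped. The 7 fatty acid genes added up to 900.3 and 885 TPM in control and 861 and 849 TPM in oeDAZL, without overlap. Both statements depended on the scaling. After median-of-ratios scaling the fatty acid sums were 849 and 867 in control and 892 and 873 in oeDAZL, which turned their order, and those of the 18 enzymes were 982 and 1078 in control and 1142 and 1081 in oeDAZL, which no longer overlapped.

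**Figure D3:**
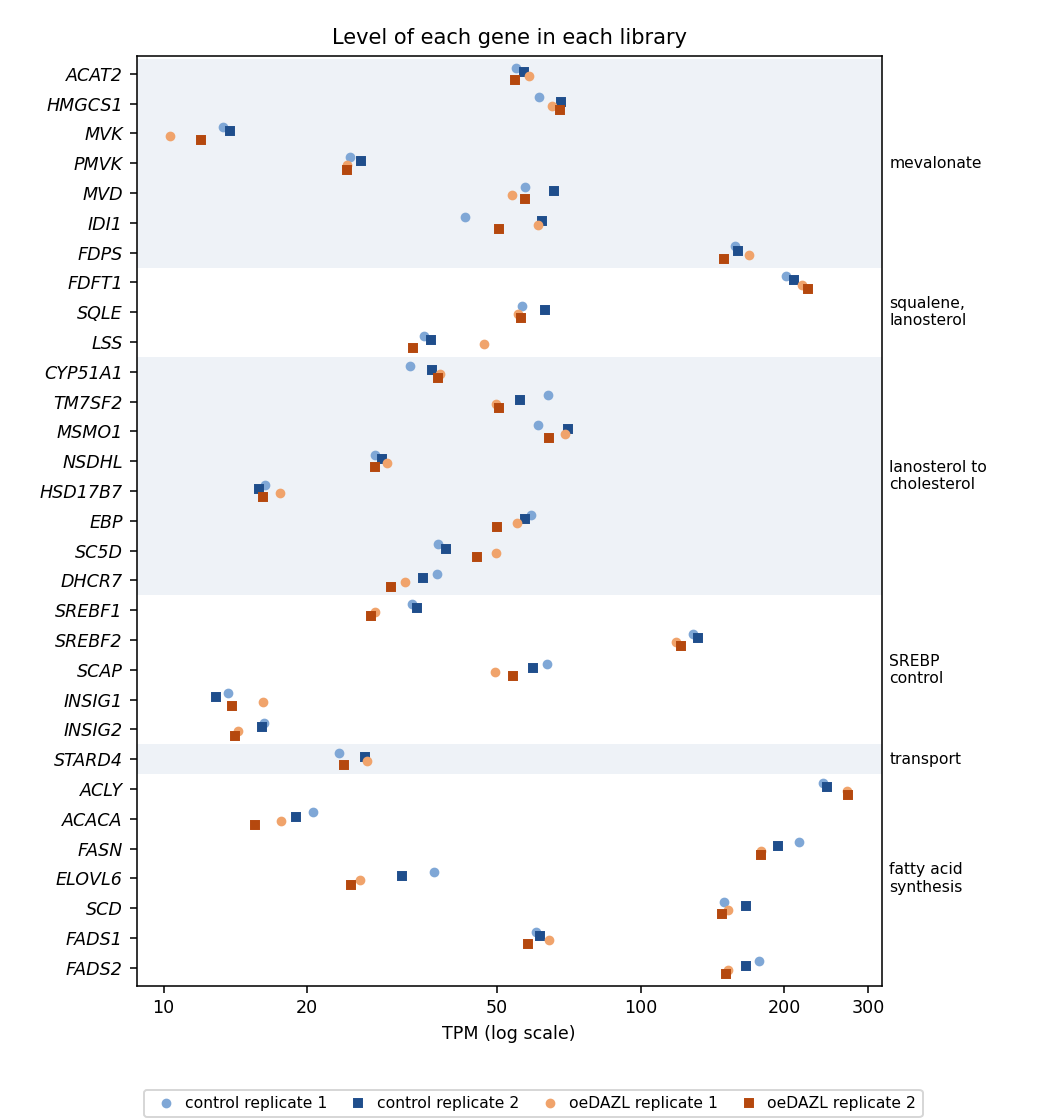
Level of each gene in TPM (horizontal axis, logarithmic) in control replicates 1 and 2 (blue) and oeDAZL replicates 1 and 2 (orange), grouped by role. The libraries of both groups lie close together for most genes, the orange points lie left of the blue ones for ELOVL6, SREBF1 and SCAP, and they lie right of them for SC5D and ACLY.

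Of the 7 genes of fatty acid synthesis and desaturation, 3 were lower (ELOVL6, FASN and FADS2) and 1 was higher (ACLY). These are 42.9% and 14.3% of the 7, where 15.2% and 5.02% of all genes were lower and higher. The median log2 fold change was −0.18, beside −0.08 for all genes. With median-of-ratios scaling only ELOVL6 was lower among the 7, and ACLY stayed higher. ELOVL6, an elongase that lengthens saturated fatty acids made by fatty acid synthase, was at 36.8 and 31.6 TPM in control and 25.8 and 24.8 TPM in oeDAZL. The groups did not overlap, and the oeDAZL mean was 26.05% lower. Its log2 fold change was −0.42 (standard error 0.10, 95% interval −0.65 to −0.18), with an adjusted p = 0.116 in limma. It was the only gene of the list that stayed at P of at most 0.05 under all 13 other settings of the fit, with log2 fold changes between −0.53, when control replicate 2 was left out, and −0.31, when control replicate 1 was. ELOVL6 lies on the reverse strand of chromosome 4 of hg38, from 110045846 to 110199199.

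FASN, the fatty acid synthase itself, was at 215 and 194 TPM in control and 179 TPM in both oeDAZL libraries, a log2 fold change of −0.19 (standard error 0.07, adjusted p = 0.192 in limma). FADS2, a desaturase of polyunsaturated fatty acids, was at 177 and 167 TPM in control and 152 and 151 TPM in oeDAZL. Both genes thus had lower levels in each oeDAZL library than in either control library, and both oeDAZL values were nearly equal while the control values were farther apart. For FADS2 the log2 fold change was −0.18 (standard error 0.06, adjusted p = 0.175 in limma). FASN lost its P of at most 0.05 without control replicate 1 (log2 fold change −0.12), and both genes lost it without either oeDAZL library, with log2 fold changes from −0.19 to −0.17.

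ACLY, the enzyme that makes cytosolic acetyl-CoA from citrate and so supplies both pathways, went the other way. It was at 241 and 246 TPM in control and 270.2 and 272 TPM in oeDAZL, 11.5% higher in the mean. The log2 difference was 0.16 (standard error 0.05), for which limma gave an adjusted p = 0.176, and median-of-ratios scaling raised it to 0.26. Without either oeDAZL library the values were 0.15 and 0.16 and the gene no longer passed, nor did it in a fit with the replicate number as a block.

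The next enzyme, ACACA, which carboxylates acetyl-CoA to malonyl-CoA, was at 20.6 and 18.9 TPM in control and 17.6 and 15.5 TPM in oeDAZL. Its log2 fold change of −0.24 (95% interval −0.50 to 0.01) did not pass, with an adjusted p = 0.269 in limma. SCD, the desaturase that makes oleate, ranged from 148 to 166 TPM over the 4 libraries and FADS1, the neighbour of FADS2, from 58.2 to 64.2 TPM. For both, the groups overlapped and the 95% intervals, −0.23 to 0.10 for SCD and −0.17 to 0.18 for FADS1, included 0. SCD passed as lower without control replicate 1, with a log2 fold change of −0.14. FADS1 and FADS2 lie on opposite strands of chromosome 11 and share 490 bases of annotated exons, 4.79% of those of FADS1, and reads there cannot be told apart unless strand was kept, which the sources used here do not state.

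Of the 5 regulators of the SREBP pathway, 2 were lower at P of at most 0.05 and none was higher, where 15.2% and 5.02% of all genes were. The median log2 fold change was −0.18 beside −0.08 for all genes, and with median-of-ratios scaling none of the 5 passed. SREBF1, which encodes the SREBP best known for fatty acid genes, was at 33.2 and 34.1 TPM in control and 27.8 and 27.2 TPM in oeDAZL. The libraries of a group were close to each other, and the oeDAZL mean was 18.4% lower. Its log2 fold change was −0.28 (standard error 0.07, 95% interval −0.46 to −0.10), with an adjusted p = 0.136 in limma. Without oeDAZL replicate 2 the value was −0.27, after median-of-ratios scaling −0.19, and neither passed. Of the annotated exon bases of SREBF1, 6.75% are shared with RAI1 on the opposite strand, which had a mean of 40.9 TPM.

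SCAP was at 63.6 and 59.4 TPM in control and 49.4 and 53.9 TPM in oeDAZL. The difference was −0.25 (standard error 0.08, adjusted p = 0.169 in limma). It passed without control replicate 2 or oeDAZL replicate 2, but not without control replicate 1 (log2 fold change −0.20) or oeDAZL replicate 1 (−0.19).

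SREBF2, which encodes the SREBP best known for cholesterol genes, was at 129 and 132 TPM in control and 119 and 121 TPM in oeDAZL. Each oeDAZL library was lower than either control library, but the log2 fold change of −0.12 (95% interval −0.25 to 0.02) did not pass, with an adjusted p = 0.293 in limma. It passed without the filter on TPM, and with median-of-ratios scaling the value was −0.02. The 2 INSIG genes differed in sign. INSIG1, itself a well-known SREBP target, was at 13.7 and 12.9 TPM in control and 16.1 and 13.9 TPM in oeDAZL. INSIG2 was at 16.3 and 16.1 TPM in control and 14.3 and 14.1 TPM in oeDAZL. So INSIG2 had the higher level of the pair in both control libraries and in oeDAZL replicate 2, and INSIG1 had it in oeDAZL replicate 1 only. Neither difference passed, with log2 fold changes of 0.16 (95% interval −0.11 to 0.44) for INSIG1 and −0.18 (95% interval −0.40 to 0.05) for INSIG2.

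The 18 enzymes of cholesterol synthesis had a median log2 fold change of 0.01, with 7 negative and 11 positive values. Of these, 2 were lower (11.1%) and 1 was higher (5.56%) at P of at most 0.05, beside 15.2% and 5.02% of all genes. All 3 act after lanosterol. In the mevalonate arm, none of 7 enzymes passed in limma, and the smallest adjusted p was 0.270. HMGCS1, which makes the precursor of mevalonate, was at 61.3 and 68.2 TPM in control and 65.3 and 67.8 TPM in oeDAZL. ACAT2, the thiolase of the first step, ranged from 54.4 to 58.3 TPM and FDPS, the farnesyl diphosphate synthase, from 149.8 to 168 TPM. The groups overlapped for each of these 3 genes, and the 95% interval was −0.16 to 0.18 for ACAT2 and −0.17 to 0.17 for FDPS. ACAT2 shares 17.2% of its annotated exon bases with TCP1 on the opposite strand, which had a mean of 293 TPM, and FDPS shares 18.6% of its own with RUSC1-AS1, which had a mean of 10.04 TPM.

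Among the enzymes that handle mevalonate and its phosphates, MVK, the mevalonate kinase, was at 13.3 and 13.8 TPM in control and 10.3 and 11.96 TPM in oeDAZL. On the log2 scale the difference was −0.26 (95% interval −0.54 to 0.02), with an adjusted p = 0.270 in limma. PMVK, the phosphomevalonate kinase, and MVD, the decarboxylase that follows it, also had both oeDAZL libraries below both control libraries, by small margins. The values of PMVK lay between 24.2 and 25.9 TPM, its log2 fold change of −0.06 turned positive under both other scalings, and the values of MVD were 57.3 and 65.8 TPM in control and 53.8 and 57.1 TPM in oeDAZL. Without control replicate 1, MVD passed as lower, with a log2 fold change of −0.24. IDI1, the isomerase of isopentenyl diphosphate, was the least reproducible gene of this arm. It was at 42.9 and 62.0 TPM in control and 60.8 and 50.6 TPM in oeDAZL, so the spread within the control group exceeded the difference between groups. Its log2 fold change of 0.10 (95% interval −0.33 to 0.53) became 0.36 without control replicate 2, which passed, and −0.16 without control replicate 1, which did not.

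FDFT1, the squalene synthase, was at 201 and 209 TPM in control and 218 and 224 TPM in oeDAZL. Both oeDAZL libraries were higher, and the log2 fold change was 0.11 (95% interval −0.02 to 0.24), with an adjusted p = 0.315 in limma. It passed with median-of-ratios scaling, at 0.21, and without control replicate 2, at 0.14. SQLE, the squalene epoxidase, was at 56.5 and 63.1 TPM in control and 55.3 and 56.1 TPM in oeDAZL. Its log2 fold change of −0.10 (95% interval −0.28 to 0.09) did not pass, and the value of −0.18 without control replicate 1 did. LSS, the lanosterol synthase, was at 35.2 and 36.4 TPM in control and 47.0 and 33.3 TPM in oeDAZL. Here oeDAZL replicate 1 stood apart from the other 3 libraries, and the log2 fold change of 0.14 rested on this library. The value was 0.38 without oeDAZL replicate 2, which passed, and −0.10 without oeDAZL replicate 1, which did not.

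After lanosterol, 3 of 8 enzymes passed and they differed in direction. The 2 lower ones are 25.0% of the 8 and the 1 higher is 12.5%, beside 15.2% and 5.02% of all genes. SC5D, a sterol desaturase of the late pathway, was at 37.6 and 39.1 TPM in control and 49.7 and 45.3 TPM in oeDAZL. It was 24.0% higher in the oeDAZL mean, the largest rise of the list. The log2 fold change was 0.30 (standard error 0.08, 95% interval 0.12 to 0.49), with an adjusted p = 0.130 in limma. It stayed at P of at most 0.05 in 12 of 13 other settings, and the exception was without oeDAZL replicate 1, where the value was 0.24. In hg38 it spans chr11:121292681-121313410 on the forward strand.

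DHCR7, the reductase that acts on the product of SC5D, was at 37.5 and 34.9 TPM in control and 32.1 and 30.01 TPM in oeDAZL. The log2 fold change of DHCR7 was −0.22 (standard error 0.08, adjusted p = 0.217 in limma). TM7SF2, a sterol reductase that acts soon after lanosterol is demethylated, was at 64.0 and 55.7 TPM in control and 49.7 and 50.6 TPM in oeDAZL. The difference was −0.25 (standard error 0.08, adjusted p = 0.191 in limma). Both reductases were thus lower, and both calls held without control replicate 2. Neither held without control replicate 1 (−0.17 for DHCR7 and −0.15 for TM7SF2), without oeDAZL replicate 1 (−0.26 and −0.24) or without oeDAZL replicate 2 (−0.17 and −0.26). DHCR7 also failed to pass once the replicate number was fitted as a block.

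The other 5 enzymes after lanosterol did not pass. CYP51A1, the lanosterol demethylase, was at 32.9 and 36.6 TPM in control and 37.9 and 37.6 TPM in oeDAZL, with a log2 fold change of 0.12 (95% interval −0.08 to 0.32). It passed in 1 of 13 other settings, without control replicate 2, at 0.19. Of its annotated exon bases, 68.2% are shared with an unnamed protein-coding entry on the same strand that was listed at 0, so the split of reads between them is uncertain. EBP, the sterol isomerase, was at 59.0 and 57.2 TPM in control and 55.2 and 49.97 TPM in oeDAZL, with a log2 fold change of −0.14 (95% interval −0.32 to 0.04). EBP shares 36.4% of its exon bases with another unnamed protein-coding entry on the same strand, which had a mean of 0.018 TPM. The split of reads is uncertain there too. The 3 enzymes that remove the remaining methyl groups, MSMO1, NSDHL and HSD17B7, had overlapping groups and log2 fold changes of 0.03, 0.02 and 0.06. Their levels ran from 61.0 to 70.3 TPM for MSMO1, from 27.7 to 29.4 TPM for NSDHL and from 15.9 to 17.5 TPM for HSD17B7. STARD4, a carrier that moves cholesterol between membranes, ranged from 23.3 to 26.7 TPM, with overlapping groups and a log2 fold change of 0.02 (95% interval −0.22 to 0.27).

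The gap between the 2 libraries of a group was set beside the difference between groups. The first compares single libraries and the second compares means of 2, which vary less, so the sizes are not on equal terms. The median absolute difference between libraries on the log2(TPM + 1) scale was 0.08 for the control pair and 0.09 for the oeDAZL pair over the 31 genes, and the median absolute log2 fold change was 0.14. Over all genes tested these values were 0.14, 0.10 and 0.15. Of the 18 cholesterol enzymes, 14 were higher in control replicate 2 than in control replicate 1 (77.8%, against 41.6% of all genes), the exceptions being TM7SF2, HSD17B7, EBP and DHCR7. The largest gap of that kind was that of IDI1, 0.52 on the log2 scale. Of the same enzymes, 11 were higher in oeDAZL replicate 1 than in oeDAZL replicate 2 (61.1%, against 47.9% of all genes), with LSS at 0.49. Without control replicate 1, 24 of the 31 genes had a negative log2 fold change and the median was −0.12, and without control replicate 2, 15 did and the median was 0.01. Without oeDAZL replicate 1 the number was 24, and without oeDAZL replicate 2 it was 16. With all 4 libraries it was 16 of 31, where 65.3% of all genes had a negative value. The median over all genes was −0.06 without control replicate 1 and −0.10 without control replicate 2. It was −0.07 without oeDAZL replicate 1 and −0.08 without oeDAZL replicate 2.

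**Figure D4:**
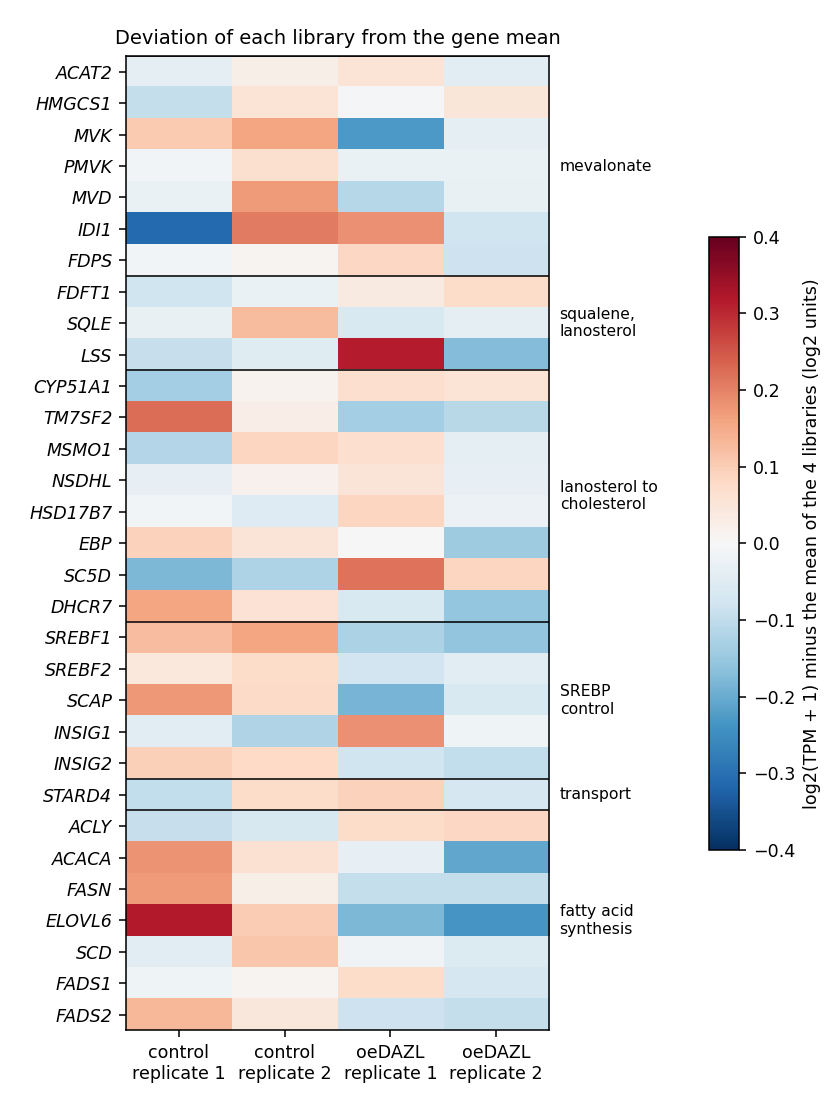
Deviation of each library from the mean of the 4 libraries for each gene, in log2(TPM + 1) units (red higher, blue lower), with genes in rows by role and libraries in columns. Control replicate 1 is blue for IDI1 and red for ELOVL6 and TM7SF2, oeDAZL replicate 1 is red for LSS while the other 3 libraries are blue, and both control columns are red for SREBF1, SCAP and MVK.

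Promoter sequences were read for the genes because the list holds a transcription factor pathway and its known targets. RefSeq windows on GRCh38.p14, from 250 bases before to 50 after each annotated gene start, were at hand for 27 of the 31 genes in 37 windows. ACAT2, FASN, FDFT1 and SQLE had none. Each motif was searched as exact letters on both strands. The sterol regulatory element, searched as TCACNCCAC, occurred in 1 of 27 genes (SREBF2; 3.70%, against 1.39% of the 27303 genes with a window), and the looser TCACNCCAN, which includes it, in 3 (SREBF2, MSMO1 and MVK; 11.1%, against 4.79%). The E-box CACGTG occurred in 4 genes (INSIG1, LSS, SC5D and SCAP; 14.8%, against 8.78% of all genes and 12.4% of the 10815 tested genes with a window), and its longer form TCACGTGA, which contains CACGTG, in INSIG1 only (3.70%, against 1.18% and 2.19%). The box bound by NF-Y, CCAAT, occurred in 20 genes (74.1%, against 39.7% and 43.0%). The GC box GGGCGG occurred in 26 genes (96.3%, against 48.3% and 76.8%). Stretches before the RefSeq start of genes that carry a sterol regulatory element, an E-box or an NF-Y box are shown, 5′ to 3′ on the strand of the gene, with the motifs named for each in capitals in either orientation and all other letters, GC boxes included, in lower case. RefSeq and GENCODE starts can differ, and the stretches of MVK, INSIG1, SCAP and ACLY lie inside the longer spans that GENCODE gives these genes, that of INSIG1 in an annotated exon. In SREBF2, MSMO1 and MVK the first run of capitals is the sterol regulatory element, in its looser form in MSMO1 and MVK, and the second is the NF-Y box.
SREBF2, chr22:41832960-41833009, forward strand: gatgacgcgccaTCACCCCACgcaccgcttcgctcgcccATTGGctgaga
MSMO1, chr4:165327504-165327543, forward strand: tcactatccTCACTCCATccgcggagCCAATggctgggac
MVK, chr12:109573589-109573643, forward strand: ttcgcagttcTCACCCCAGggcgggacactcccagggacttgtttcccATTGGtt
INSIG1, chr7:155297813-155297839, forward strand, with the E-box: cgggcaggcTCACGTGAtgcgggcccc
SCAP, chr3:47475977-47476016, reverse strand, with the E-box: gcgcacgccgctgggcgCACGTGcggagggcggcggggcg
SC5D, chr11:121292626-121292679, forward strand, with the E-box: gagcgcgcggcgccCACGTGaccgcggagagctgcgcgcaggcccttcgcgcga
ACLY, chr17:41919033-41919102, reverse strand, with a pair of NF-Y boxes: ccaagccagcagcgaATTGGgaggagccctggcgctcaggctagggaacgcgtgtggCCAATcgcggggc
Both genes that were higher in oeDAZL, SC5D and ACLY, carry the NF-Y box, and so do DHCR7, FADS2 and TM7SF2 among the 6 lower genes that have a window. The letters thus occurred on both sides of the comparison, and a match describes the sequence and shows neither binding nor use.

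A second list of 55 lipid genes outside the 31 was set beside them, of which 48 were tested. IDI2, ABCG1, ELOVL3, ACSL5, ACSL6, THRSP and MLXIPL had a mean under 1 TPM. Of the 48, 10 were lower (20.8%) and 3 were higher (6.25%) in oeDAZL at P of at most 0.05 in limma, beside 15.2% and 5.02% of all genes, and none had an adjusted p under 0.05. The median log2 fold change was −0.09.

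Among genes of SREBP processing and sterol sensing, 4 of 10 were lower (40.0%) and none was higher, beside 15.2% and 5.02% of all genes. MBTPS1, the protease of the Golgi that makes the first cut in the SREBPs, was at 66.3 and 60.5 TPM in control and 52.9 and 53.5 TPM in oeDAZL. On the log2 scale the difference was −0.25 (adjusted p = 0.158 in limma). RNF145, a ubiquitin ligase of the endoplasmic reticulum, NR1H2, a sterol-activated nuclear receptor, and MYLIP, a ubiquitin ligase that acts on lipoprotein receptors, had log2 fold changes of −0.19, −0.27 and −0.35. The other 6 did not pass.

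Of 26 tested genes for acetyl-CoA and NADPH supply and other fatty acid steps, 5 were lower (19.2%) and 2 were higher (7.69%). The shares of all genes were 15.2% and 5.02%. LPIN1, a phosphatidate phosphatase, was at 8.81 and 7.78 TPM in control and 5.12 TPM in both oeDAZL libraries, with a log2 fold change of −0.60 (adjusted p = 0.115 in limma). ACACB, the second acetyl-CoA carboxylase, was at 3.87 and 3.19 TPM in control and 2.30 and 1.79 TPM in oeDAZL, with a log2 fold change of −0.58 that the added 1 TPM understates. Neither pair of groups overlapped. ME1, the malic enzyme that supplies NADPH, had a log2 fold change of −0.34, SLC25A1, the mitochondrial citrate carrier, −0.17, and MCAT, a mitochondrial enzyme of fatty acid synthesis, −0.33. So the citrate carrier was lower and ACLY, which uses its citrate in the cytosol, was higher. HACD3, a dehydratase of the elongation cycle, was higher by 0.16 and ACSL4, which activates polyunsaturated fatty acids, by 0.37 on the log2 scale. Of 12 other isoprenoid and sterol genes, NPC2, which hands cholesterol out of lysosomes, was lower, with a log2 fold change of −0.25, and NUS1, a subunit of the enzyme for dolichol, was higher, with one of 0.20. With median-of-ratios scaling, 4 of the 48 were lower and 5 were higher, and with quantile normalization 5 and 5. The shares of all genes were 8.19% and 11.2% with the first and 9.07% and 8.40% with the second.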

How the data were processed

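RNA-seq libraries of 2 control and 2 oeDAZL samples were analysed. The labels also list small RNA libraries, which were not used here. Reads were trimmed with Trim Galore, mapped to hg38 with HISAT2 (2.1.0) and quantified with StringTie (2.1.4) per the submitters' processing notes and the study's methods; the annotation release and the strand setting are not given in the sources used here. The TPM values were used as deposited by the authors. Of 65003 entries, 45 Y copies of pseudoautosomal genes and 18 repeats were left out. TPM gives no read depth.

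Values were transformed to log2(TPM + 1), genes with a mean of at least 1 TPM were kept, and oeDAZL was compared with control in limma (3.58.1, R 4.3.3) with a trended prior and no covariate, two-sided. The script was tested on simulated data. Genes were named when they belonged to the list of 31, or to the second list with P of at most 0.05. Members and lists were chosen with earlier results of these data known. Alternatives were another pseudocount, other filters and scalings, no trend, a replicate block and leaving out each library. Coordinates are from GENCODE 44 on hg38.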

Additional observations from a re-analysis of the deposited data

How the results depend on the processing

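With TPM as deposited, 7 of the 31 genes were lower and 2 higher at P of at most 0.05 (2530 and 838 of all genes). Under median-of-ratios scaling these were 1 and 3 (1366 and 1872), with a median of 0.042, and under quantile normalization 6 and 2 (1514 and 1402), with a median of 0.014; the all-gene median moved from −0.08 to 0.01 in both. Without the trend they were 2 and 1 (2318 and 565). Under median-of-ratios scaling PMVK was 0.042, SQLE 0.00070 and SCD 0.032, and under quantile normalization PMVK was 0.031. The cause was not tested. Leaving out 1 library gave 2 to 7 lower and 0 to 5 higher genes, a median of −0.12 to 0.0077 (−0.062 to 0.11 less the all-gene median), and 1226 to 3295 lower and 357 to 1341 higher among all genes; a group of 1 library was assumed to vary like the other. Signs turned for ACAT2 (−0.037 to 0.062), FADS1 (−0.064 to 0.074), FDPS (−0.084 to 0.084), HMGCS1 (−0.035 to 0.12), IDI1 (−0.16 to 0.36), LSS (−0.10 to 0.38), MSMO1 (−0.071 to 0.13), NSDHL (−0.026 to 0.059), SCD (−0.14 to 0.0077) and STARD4 (−0.062 to 0.11). The replicate numbers do not pair libraries by the labels, and deviations of same-numbered libraries correlated at −0.104 across genes. With the replicate number as a block, 6 were lower and 1 higher (2102 and 670), and with the crossed pairing, chosen after seeing the data, 7 and 2 (2957 and 1060). An adjusted p under 0.05 in limma was reached by ELOVL6 alone, without control replicate 2 and with the crossed pairing, and by none in the other settings. TPM keeps no depth, so its limit on small differences is unknown.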
